A study of Mus musculus with 8 samples.

Results

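The 10 genes described here are epithelial serine proteases, most of them trypsin-like and at the cell surface, with their inhibitors, out of 22274 genes in the deposited table. They were chosen by symbol: the cell-surface proteases St14, Hpn, Tmprss2 and Tmprss4, the proteases Prss8, Prss22 and Prss23, the Kunitz-type inhibitors Spint1 and Spint2, and the proprotein convertase Furin. The choice was made with the differences between the same 8 libraries in view, so the differences of the 10 members between groups are descriptions and carry no p-value. RNA was sequenced from a mouse kidney line labelled RFB and given as fibroblasts. All 8 libraries carry the label TGF-β, a cytokine that makes fibroblasts contractile and matrix-producing. For 4 libraries the cells were given adenovirus with GFP (ad-GFP) and for the other 4 adenovirus with Cre (ad-CRE), a recombinase that cuts out DNA between loxP sites. The allele for Cre to act on is not described in the labels; the series' own text names the histone methyltransferase Suv39h1 and a knockdown of it, which no sample label mentions. All samples come from a single line.

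Trypsin-like proteases of epithelia are made as inactive zymogens and switch one another on by cleavage. The transmembrane enzyme matriptase, product of St14, and the anchored enzyme prostasin, product of Prss8, form such a mutual pair on the surface of many epithelia, the kidney tubule among them. Spint1 and Spint2 encode transmembrane Kunitz inhibitors, also known as inhibitors of the hepatocyte growth factor activator, which block matriptase, prostasin and hepsin on the cells that make them. In the kidney, prostasin is known for raising the activity of the epithelial sodium channel. Furin belongs to another protease family, the subtilisins, and cleaves precursors in the secretory pathway.

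Library totals ran from 15998257 to 22297598 counts. Suv39h1 was at 41.5 CPM under ad-GFP against 32.5 under ad-CRE, lower by edgeR (log2 change −0.35, SE 0.053, adjusted p 8.65e-07). The chromatin remodelling ATPase gene Smarca4 was lower by far more (−3.07, SE 0.044, edgeR adjusted p 3.82e-31). The epithelial markers are abundant in a line given as fibroblasts. FPKM (fragments scaled to transcript length and library depth) was summed over 8 tubular epithelial markers. The sum was 1155 to 1287 in ad-GFP and 2532 to 2626 in ad-CRE. Of the 8 markers, 6 rose, 1 fell and 1 did not pass. Krt8, Krt18 and Cldn4 had the highest FPKM and rose. Pax8 rose by only 0.12 on the log2 scale, and Cdh16 fell by 0.66. The sum over 8 fibroblast markers was 53.4 to 61.3 and 26.6 to 28.1, with 1 risen and 6 fallen of 7 tested; Lum had 0 reads in ad-GFP and 1 in ad-CRE. The 5 endothelial markers all fell (49.3 to 54.9 and 20.7 to 23.4), and 3 of 4 leukocyte markers tested fell (38.8 to 42.6 and 21.1 to 23.6), with Cd3e at 0 counts in all libraries. These marker levels differed between the same libraries as the results below, and their part in the results was not tested. In bulk RNA a change in the share of a cell type and a change in RNA per cell cannot be told apart.

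Of the 10 members, 7 had no overlap between groups, each higher in ad-CRE: Prss22, Tmprss2, Prss8, St14, Spint2, Hpn and Spint1, with fitted folds of 1.91 to 7.01 over ad-GFP. Folds of single members below are edgeR's fitted folds. Prss23 and Furin were abundant and nearly level, and Tmprss4 was close to absent. The filter on low counts kept 9 members. Of these, 8 were past an adjusted p of 0.05 upwards and 0 downwards, where 36.8% of all 13702 genes tested were called higher, 36.3% lower and 73.1% in either direction. The groups did not overlap upwards in 33.4% of all genes tested and in either direction in 66.2%. A log2 fold change of at least 0.9, a cutoff that lies just below the smallest of the same 7 members, was reached by 6.14% of genes. The median log2 fold change of the 9 was 1.07, beside 0.00 over all genes tested. Since the members were picked with these differences known, nothing is read from the counts.

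**Figure D1:**
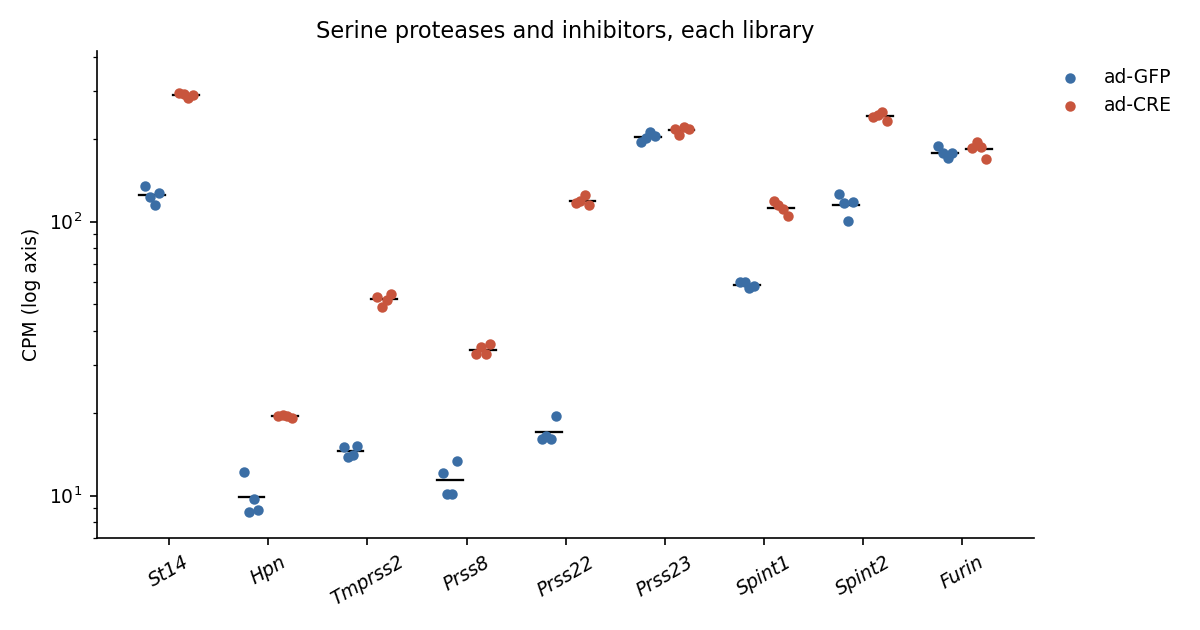
CPM (counts scaled to library size, log axis) of 9 members in each of 4 ad-GFP and 4 ad-CRE libraries, with a bar at each mean. The ad-CRE points lie above all ad-GFP points for 7 genes, and the groups overlap for Prss23 and Furin.

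The largest difference among the members was that of Prss22 (ENSMUSG00000045027, GRCm38 chromosome 17, 23993534 to 23998100, minus strand), which encodes a tryptase-like serine protease known from airway epithelium. In replicate order, the ad-GFP libraries gave 16.1, 16.5, 16.03 and 19.6 CPM and the ad-CRE libraries 117, 119, 125 and 115 CPM. The lowest ad-CRE library thus stood far above the highest ad-GFP library, which was replicate 4. The means were 17.1 ± 1.69 and 119 ± 4.18 CPM (SD, n = 4 each). The fold fitted by edgeR was 7.01, or 2.81 on the log2 scale (SE 0.051). Of all genes tested, 0.234% had a larger log2 fold change. It was read 1257 times in ad-GFP and 9565 times in ad-CRE.

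Prss8 (ENSMUSG00000030800, chromosome 7, 127925716 to 127930104, minus strand), the prostasin gene, gave 12.1, 10.1, 10.1 and 13.4 CPM in the ad-GFP libraries and 32.8, 34.7, 32.9 and 35.6 CPM in the ad-CRE libraries. All ad-CRE libraries were above all ad-GFP libraries, which were the more spread group (coefficient of variation 13.9% against 4.08%). The log2 fold change was 1.57 (SE 0.071), or 2.98-fold. Exons of Prss8 share 122 bases with Kat8, a histone acetyltransferase gene on the opposite strand, and the sources used here do not state whether counting used strand. Kat8 itself did not pass, at 0.01 (edgeR adjusted p = 0.919).

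Prss23 (ENSMUSG00000039405, chromosome 7, 89507783 to 89527187, minus strand), a secreted serine protease gene, was nearly level. It gave 196, 201, 213 and 205 CPM in the ad-GFP libraries and 218, 206, 221 and 217 CPM in the ad-CRE libraries. The groups overlapped, since ad-CRE replicate 2 lay below ad-GFP replicate 3. The log2 fold change was 0.08 (SE 0.030), 1.06-fold. It was past the threshold in the fit used throughout but not with total counts only (0.05), with the filter of 5 CPM (0.06), without ad-GFP replicate 1 (0.06) or without ad-CRE replicate 3 (0.07). Its exons share 864 bases with the antisense gene Prss23os.

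Among the genes for type II transmembrane proteases, which are anchored by their amino-terminal end, St14 (ENSMUSG00000031995, chromosome 9, 31089402 to 31131853, minus strand) was the most abundant. Matriptase starts several of the cleavage cascades at epithelial surfaces. St14 gave 134, 123, 115 and 127 CPM in the ad-GFP libraries and 294, 292, 282 and 289 CPM in the ad-CRE libraries. The groups were far apart, and the ad-CRE libraries lay close together (coefficient of variation 1.69%, against 6.47% in ad-GFP). The log2 fold change was 1.21 (SE 0.034), 2.32-fold, on 9278 and 23226 reads.

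Tmprss2 (ENSMUSG00000000385, chromosome 16, 97564682 to 97611195, minus strand), whose product also primes the surface proteins of several respiratory viruses, gave 15.01, 13.8, 14.01 and 15.2 CPM in the ad-GFP libraries. In the ad-CRE libraries it gave 53.3, 48.8, 51.6 and 54.5 CPM, so that no library of 1 group came near the other. Its log2 fold change of 1.84 (SE 0.056), 3.59-fold, was the next largest after Prss22. Hpn (ENSMUSG00000001249, chromosome 7, 31098725 to 31115290, minus strand) encodes hepsin, which cleaves uromodulin in the tubule. It gave 12.2, 8.73, 9.69 and 8.82 CPM in the ad-GFP libraries and 19.6, 19.7, 19.5 and 19.2 CPM in the ad-CRE libraries. Replicate 1 was the highest ad-GFP library and still lay below each ad-CRE library. The log2 fold change was 0.97 (SE 0.084), 1.96-fold, on only 739 and 1567 reads, the fewest of the 9 members tested.

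Tmprss4 (ENSMUSG00000032091, chromosome 9, 45172726 to 45204092, minus strand), another type II transmembrane protease gene, had 4, 0, 0 and 2 reads in ad-GFP and 8, 8, 10 and 3 reads in ad-CRE. The groups overlapped in CPM, as ad-GFP replicate 1 (0.189) lay above ad-CRE replicate 4 (0.173). It was removed by the filter, and no fold is given for levels this low. Part of its exons, 412 bases, lies opposite the antisense gene Gm17099.

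Both Kunitz inhibitor genes were higher in ad-CRE, each by less than St14 on the log2 scale. Spint1 (ENSMUSG00000027315, chromosome 2, 119237362 to 119249527, plus strand) gave 60.2, 60.2, 57.2 and 58.0 CPM in the ad-GFP libraries and 119, 114, 111 and 105 CPM in the ad-CRE libraries. Its log2 fold change was 0.93 (SE 0.039), 1.91-fold, the smallest of the 7 members without overlap. Spint2 (ENSMUSG00000074227, chromosome 7, 29256323 to 29281912, minus strand) gave 126, 117, 101 and 118 CPM in the ad-GFP libraries and 241, 246, 251 and 232 CPM in the ad-CRE libraries. The groups did not overlap, with a log2 fold change of 1.07 (SE 0.041), 2.099-fold. The gene is of more general expression than Spint1 and its product inhibits a wider set of these enzymes.

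Furin (ENSMUSG00000030530, chromosome 7, 80388585 to 80405436, minus strand) gave 188, 177, 170 and 177 CPM in the ad-GFP libraries and 185, 195, 187 and 169 CPM in the ad-CRE libraries. The groups overlapped at both ends, as ad-CRE held both the highest and the lowest library. The log2 fold change was 0.05 (SE 0.036) in counts, and −0.05 (SE 0.060) on the log2(FPKM + 1) scale. Of the alternatives tried, it was past the threshold only without ad-CRE replicate 4 (0.08, SE 0.033). The transcript length that its counts and FPKM imply together varied from 3694 to 4266 bases between libraries. For Prss22 it stayed at 1324 bases in all 8 libraries, and for Spint2 between 1218 and 1221 bases.

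Since several members were higher together, the sequence before their starts is shown. RefSeq's promoter table for GRCm38.p6 held a window for 6 of the 10 members: Spint1, Spint2, Hpn, Tmprss2, Prss23 and Furin. It had no entry for Prss22, Prss8, St14 and Tmprss4. The 250 bases before the annotated start are printed for both inhibitor genes and Hpn, which were higher in ad-CRE, and for Furin, whose groups overlapped. Capitals mark matches on either strand to 3 short motifs. The GC box is searched as GGGCGG. The E-box that the Snail and Zeb repressors bind is searched as CACCTG. The TATA box is searched as TATAAA. Both strands were also searched for the letters AACCGGT of the Grainyhead-like factors, and for those of AP-1, written TGANTCA. The table holds 7 windows for Prss23 and 2 each for Hpn and Furin. For each gene only the window nearest the GENCODE gene start was searched. The windows end at RefSeq's start site, which for the printed genes lay 0 to 65 bases from the GENCODE gene start.
Spint1, chr2:119237110-119237359, plus strand: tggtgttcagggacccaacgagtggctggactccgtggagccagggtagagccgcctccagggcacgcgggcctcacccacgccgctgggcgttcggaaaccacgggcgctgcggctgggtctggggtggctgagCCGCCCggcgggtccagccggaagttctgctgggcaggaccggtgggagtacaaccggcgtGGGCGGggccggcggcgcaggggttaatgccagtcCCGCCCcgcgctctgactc
Spint2, chr7:29281978-29282227, minus strand: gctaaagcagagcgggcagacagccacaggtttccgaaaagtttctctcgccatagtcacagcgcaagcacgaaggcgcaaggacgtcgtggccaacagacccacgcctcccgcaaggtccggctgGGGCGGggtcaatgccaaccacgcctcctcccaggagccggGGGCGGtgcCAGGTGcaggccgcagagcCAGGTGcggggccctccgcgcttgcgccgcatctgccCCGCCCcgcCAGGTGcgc
Hpn, chr7:31115327-31115576, minus strand: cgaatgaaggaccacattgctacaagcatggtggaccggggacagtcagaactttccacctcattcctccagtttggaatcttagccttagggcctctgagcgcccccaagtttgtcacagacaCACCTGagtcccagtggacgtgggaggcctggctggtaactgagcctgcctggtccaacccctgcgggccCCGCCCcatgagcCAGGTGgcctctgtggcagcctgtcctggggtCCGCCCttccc
Furin, chr7:80405437-80405686, minus strand: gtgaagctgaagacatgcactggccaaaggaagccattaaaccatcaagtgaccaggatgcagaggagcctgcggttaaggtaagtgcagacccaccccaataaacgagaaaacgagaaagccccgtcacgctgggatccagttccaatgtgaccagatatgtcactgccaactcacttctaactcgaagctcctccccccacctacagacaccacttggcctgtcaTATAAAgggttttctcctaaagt

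The windows of the Kunitz inhibitor genes were rich in G and C, 72.8% for Spint1 and 69.6% for Spint2, with 26 and 24 CpG dinucleotides, beside medians of 52.4% and 6 over all 32851 windows of the table. Each held 3 GC boxes. A GC box was found in 32.7% of all windows, a share that counts any window with a match. That share takes no account of the number of matches or of G and C content. Spint2 also held 3 E-boxes, whose outer ends lie 74, 55 and 9 bases before the start, and Hpn held 2, at 126 and 43 bases. The E-box was found in 17.2% of all windows, counted the same way. It did not match in the window searched for Spint1, Tmprss2, Prss23 or Furin. Furin held a TATA box 23 bases before the start, a motif of 12.4% of windows. The Grainyhead-like motif (0.831% of windows) and the AP-1 motif (6.75%) matched in none of the 6 windows searched, and no marked matches overlapped. The Tmprss2 window, at 61.6% G and C, and the Prss23 window searched, at 47.6%, held no match to any of the 5 motifs. Matches in a window are letters only and show no binding.

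On the scale per transcript length, the members covered a wide range within each group. In ad-GFP, Prss23 was highest at 121 ± 4.95 FPKM (SD, n = 4), above 96.4% of tested genes, followed by Spint2 at 95.4 ± 8.74 FPKM. Furin (45.6 ± 2.92 FPKM) and St14 (39.8 ± 2.38 FPKM) came next, with ranges that overlapped. Spint1 (26.3 ± 0.664 FPKM) and Prss22 (13.0 ± 1.26 FPKM) each stood apart from their neighbours in the order. Prss8 (6.29 ± 0.873 FPKM), Hpn (5.66 ± 0.901 FPKM) and Tmprss2 (4.72 ± 0.331 FPKM) were low; the ranges of Prss8 and Hpn overlapped, as did those of Hpn and Tmprss2. Tmprss4 was listed at 0.10, 0, 0 and 0.06 FPKM.

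In ad-CRE the order was another. Spint2 (197 ± 6.71 FPKM) stood above Prss23 (129 ± 3.91 FPKM). Prss22, at 88.9 ± 3.15 FPKM, was close to St14, at 89.4 ± 1.86 FPKM, and their ranges overlapped. Spint1 (49.5 ± 2.38 FPKM) and Furin (44.1 ± 3.54 FPKM) overlapped too. Below them were Prss8 (18.2 ± 0.701 FPKM) and Tmprss2 (16.8 ± 0.949 FPKM), whose ranges touched at 17.62 FPKM, and Hpn (11.1 ± 0.313 FPKM) lay under both.

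**Figure D2:**
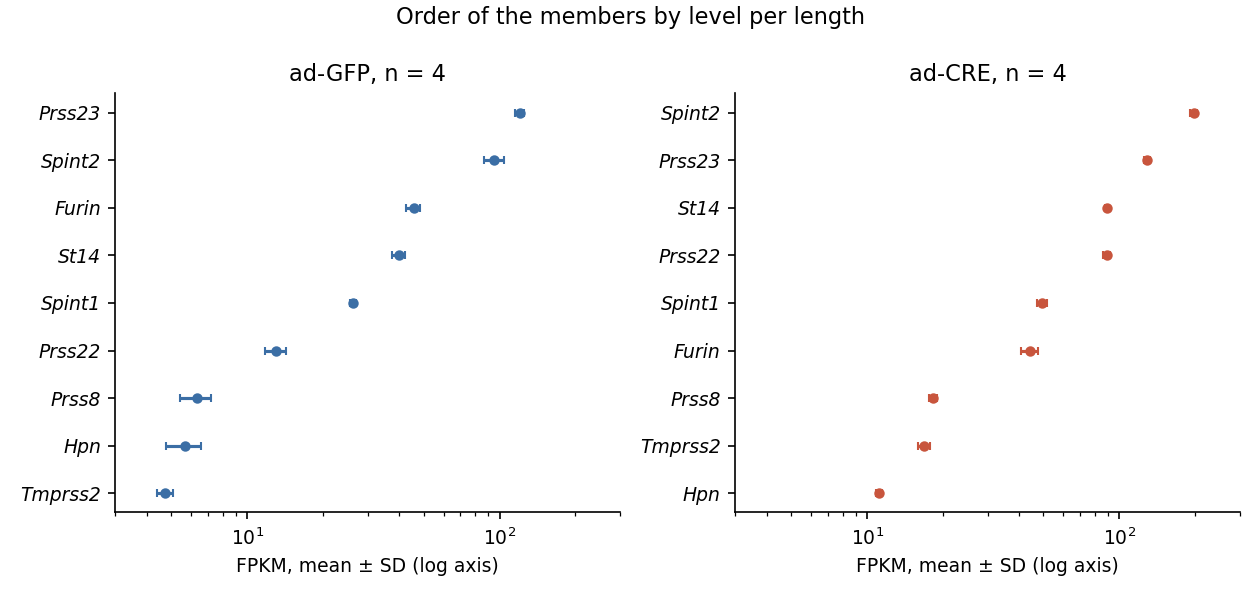
Mean FPKM (log axis) with SD over 4 libraries for 9 members, ordered by level within ad-GFP (left) and ad-CRE (right). Prss22 stands sixth in ad-GFP at 13.0 FPKM and beside St14 in ad-CRE at 88.9 FPKM.

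Summing FPKM puts the inhibitor transcripts beside those of the proteases. The sum of St14, Prss8, Prss22, Hpn, Tmprss2 and Tmprss4 was 73.4, 66.7, 64.4 and 73.4 FPKM in ad-GFP and 225, 225, 226 and 222 FPKM in ad-CRE, 3.23-fold higher by the means. The sum of Spint1 and Spint2 was 131, 124, 109 and 123 FPKM in ad-GFP and 248, 250, 253 and 235 FPKM in ad-CRE, 2.03-fold higher. Both sums were higher in each ad-CRE library than in any ad-GFP library, and the protease sum by more.

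Inhibitor transcripts by FPKM thus numbered 1.75 ± 0.0833 per protease transcript in ad-GFP and 1.097 ± 0.0279 in ad-CRE (SD, n = 4), with no overlap. The make-up of the protease sum differed as well: St14 held 57.3 ± 1.47% of it in ad-GFP and 39.8 ± 0.965% in ad-CRE, whereas Prss22 held 18.7 ± 1.44% and 39.6 ± 1.12%. Prss8 kept a like share (9.02 ± 0.691% and 8.11 ± 0.363%). The ratio rests on which proteases are summed, a choice examined after the values were seen. Without Prss22 it was 2.15 ± 0.0903 and 1.82 ± 0.0744, and with Prss23 added it turned, to 0.640 ± 0.0517 in ad-GFP and 0.698 ± 0.0245 in ad-CRE, with ranges that overlapped. These are transcript levels, and the activity of the proteins was not measured.

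**Figure D3:**
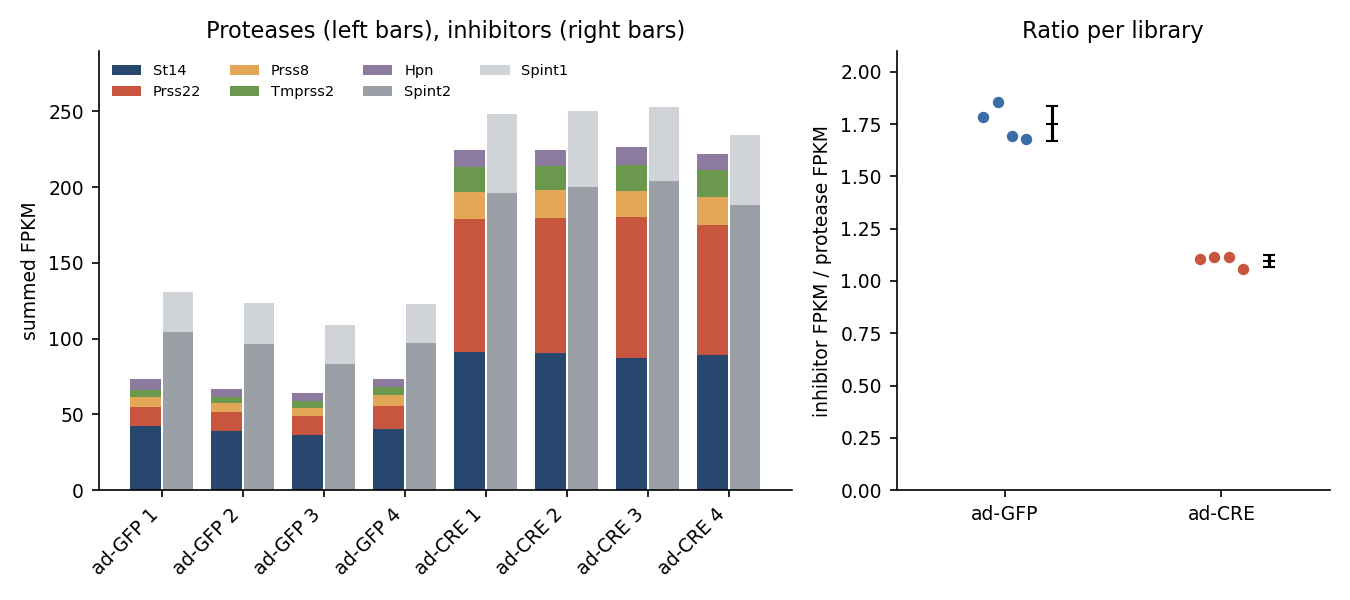
Left, stacked FPKM of 5 proteases (left bar) and 2 Kunitz inhibitors (right bar) in each library, with Tmprss4 too low to draw; right, the ratio of inhibitor to protease FPKM per library with mean and SD. The ratio lies at 1.68 to 1.85 in ad-GFP and at 1.06 to 1.12 in ad-CRE. Prss23 and Furin are not in the protease sum. With Prss23 added the mean ratio was 0.640 in ad-GFP and 0.698 in ad-CRE, with ranges that overlapped. Without Prss22 it was 2.15 and 1.82.

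Ratios were also taken within 3 pairs of members. Spint2 stood at 3.63 ± 0.271 times the FPKM of Spint1 in ad-GFP and 3.99 ± 0.175 times in ad-CRE, and these ranges overlapped. St14 stood at 6.39 ± 0.618 times the FPKM of its partner Prss8 in ad-GFP and 4.91 ± 0.205 times in ad-CRE, without overlap. Spint1, whose product binds matriptase, had 0.662 ± 0.0323 of the St14 level in ad-GFP and 0.553 ± 0.0215 in ad-CRE, again without overlap.

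The annotation deposited with the table gives what the members share beyond their names. Serine-type endopeptidase activity is annotated for 8 of the 10, and inhibition of it for 3, Spint1, Spint2 and Furin. The plasma membrane is given for 8, all but Prss22 and Prss23. Neural tube closure, a process in which matriptase and its inhibitors are known to act, is given for St14, Spint1 and Spint2. Support of viral entry is given for Tmprss2 and Tmprss4.

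Genes next to 4 of the members were examined, 3 on each side among the genes of the table, a rule set after the table was seen. Prss22 lies in a cluster of tryptase-like genes on chromosome 17. Of its neighbours, Prss27, an epithelial serine protease gene 40044 bases away, rose by 1.92 (edgeR adjusted p = 2.09e-09) from 0.779 to 2.97 CPM, and Kctd5 rose by 0.25 (edgeR adjusted p = 3.66e-08). Pdpk1, a kinase gene, fell by 0.30 on the log2 scale (edgeR adjusted p = 3.14e-09). Prss30, 12968 bases from Prss22, had only 15 reads in ad-GFP and 6 in ad-CRE, and Sbp and Sbpl had none. Per length in ad-CRE, Prss22 at 88.9 FPKM stood far above Prss27 at 2.35 FPKM.

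Around Prss8, the serine protease gene Prss36, 2534 bases away, rose by 1.03 (edgeR adjusted p = 0.000478) from 0.857 to 1.73 CPM. Bckdk and Vkorc1 rose by 0.42 and 0.50 (edgeR adjusted p 1.63e-08 and 0.00016), and Pycard fell by 1.01 on the log2 scale (edgeR adjusted p = 3.23e-05). Around St14, Aplp2 rose by 0.44 (edgeR adjusted p = 3.73e-16) and Zbtb44 fell by 0.39 on the log2 scale (edgeR adjusted p = 5.63e-08), while 3 others tested did not pass. Of 5 neighbours of Tmprss2 tested, 2 rose and 3 fell. For these counts, as for those around the other members, the shares over all genes tested were 36.8% and 36.3%. Tmprss2 has the interferon-induced gene Mx2 3782 bases away on the opposite strand. Mx2 fell from 17.8 to 0.271 CPM, a log2 fold change of −5.99 (edgeR adjusted p = 4.78e-24), in the same libraries in which Tmprss2 was 3.59-fold higher. Mx1, of the same family, fell by 3.10 on the log2 scale (edgeR adjusted p = 9.79e-10). On the other side Ripk4, an epithelial kinase gene 130738 bases away, rose by 0.78 and Prdm15 by 0.52 (edgeR adjusted p 3.86e-15 and 5.33e-09), and C2cd2 fell by 0.15 (edgeR adjusted p = 0.0348).

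The 7 lists of related genes, written from general knowledge, place the members among their relatives. Of all genes tested, 36.8% rose and 36.3% fell, and the median log2 fold change was 0.00. A list of 23 other serine protease genes was taken as cell-surface, which was not checked for Prss36. Of the 23, 6 had no read in any library and 6 were tested. Among these, 3 rose, 2 fell and 1 did not pass (median 0.65, but −0.38 over the 16 genes tested with no filter beyond 1 read, and 0.18 on the log2(FPKM + 1) scale). Tmprss11f, a protease gene of squamous epithelia, fell by 3.61 on the log2 scale (edgeR adjusted p = 2.33e-12) from 3.56 to 0.281 CPM. Corin, whose product activates atrial natriuretic peptide, fell by 1.80 on the log2 scale (edgeR adjusted p = 4.15e-06) from 1.33 to 0.382 CPM. Tmprss11e, at 4.23 and 5.08 CPM, had a log2 change of 0.27 (edgeR adjusted p = 0.0946), and 0.40 without ad-GFP replicate 1, where it passed (edgeR adjusted p = 0.0198). By FPKM the highest of the 6 in ad-CRE was Prss27, at 2.35 FPKM, far below Prss22 or St14.

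All 8 secreted serine protease genes that were tested passed, 5 upwards and 3 downwards. Their median was 0.35, but 0.10 over 16 genes with no filter beyond 1 read, 0.09 over 3 genes with the filter of 5 CPM and 0.19 on the log2(FPKM + 1) scale. Plau, encoding the urokinase that matriptase can activate, had the highest FPKM of the list and rose by 2.44 (edgeR adjusted p = 1.47e-34), from 285 ± 8.73 to 1544 ± 26.3 CPM (SD, n = 4). Plat, encoding the tissue-type plasminogen activator, fell by 0.97 on the log2 scale (edgeR adjusted p = 1.74e-21) from 194 to 99.1 CPM. Prss35, a relative of Prss23, fell by 3.39 on the log2 scale (edgeR adjusted p = 1.16e-09), from 2.19 to 0.199 CPM.

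The other serine protease inhibitor genes had 18 tested, with 5 risen, 9 fallen and 4 not past the threshold. The list median was −0.42, and −0.27 with the filter of 5 CPM and −0.22 on the log2(FPKM + 1) scale. Spint1 and Spint2, both higher in ad-CRE, are members chosen with their differences in view and are not in this list. Serpine2, encoding protease nexin, fell by 2.01 on the log2 scale (edgeR adjusted p = 6.26e-25) from 98.8 to 24.4 CPM. Serpinb9, a granzyme inhibitor gene, fell by 1.004 on the log2 scale (edgeR adjusted p = 7.19e-22), from 143 to 71.3 CPM. App, some of whose transcripts encode a Kunitz domain, rose by 0.76 (edgeR adjusted p = 1.06e-23) from 1017 to 1721 CPM.

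Of the genes listed as substrates and receptors, 15 were tested, of which 11 rose and 2 fell, with 2 not past the threshold (list median 0.62). Whether the product of each is cleaved by a member was not checked. Lama3, a chain gene of the laminin that hepsin cleaves, rose by 1.02 (edgeR adjusted p = 3.65e-23) from 120 to 243 CPM. Epcam, an epithelial adhesion gene whose product matriptase cleaves, rose by 1.17 (edgeR adjusted p = 3.05e-22), with means of 81.5 and 184 CPM. The receptor genes F2r and F2rl1, whose products are switched on by cleavage, rose by 0.52 and 0.62 (edgeR adjusted p 5.12e-17 and 1.94e-16). Umod, the uromodulin gene and a hepsin substrate, was singled out after its value was seen. It rose by 3.31 (edgeR adjusted p = 7.72e-09) at low levels, 0.06 to 0.615 mean FPKM, on 11 and 123 reads. The 2 that fell were Hgf and F2rl2, by 0.86 and 0.80 on the log2 scale (edgeR adjusted p 0.0142 and 0.00683). Of the sodium channel genes, Scnn1a rose by 0.50 with groups that overlapped in CPM (edgeR adjusted p = 0.0138). Scnn1g did not pass, and Scnn1b was not tested.

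The other proprotein convertase genes had 6 tested, with 3 risen, 2 fallen and 1 not past the threshold. The list median was 0.43, but 0.18 with no filter beyond 1 read and 0.19 on the log2(FPKM + 1) scale. Pcsk7 fell by 0.31 on the log2 scale (edgeR adjusted p = 6.06e-07). Pcsk6 rose by 0.80 (edgeR adjusted p = 6.92e-12) and Mbtps1, the site-one protease gene, by 0.43 (edgeR adjusted p = 7.61e-14). Furin, more abundant in ad-GFP than any of these by FPKM, overlapped between the groups.

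The epithelial transcription factor list had 13 genes tested, with 7 risen, 3 fallen and 3 not past the threshold (median 0.44, and 0.27 on the log2(FPKM + 1) scale). Grhl2, a Grainyhead-like factor of epithelial identity, rose by 1.07 (edgeR adjusted p = 5.47e-18) from 26.4 to 55.7 CPM, and Elf3 by 1.17 (edgeR adjusted p = 2.92e-17). Grhl1, of the same family, fell by 1.33 on the log2 scale (edgeR adjusted p = 5.1e-07). All 7 mesenchymal factor genes were tested, and of them 6 fell, 0 rose and Snai1 did not pass (list median −1.31). The repressor genes Zeb2, Snai2 and Zeb1 fell by 1.41, 1.47 and 0.72 on the log2 scale (edgeR adjusted p 1.63e-23, 8.83e-15 and 9.41e-15).

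**Figure D4:**
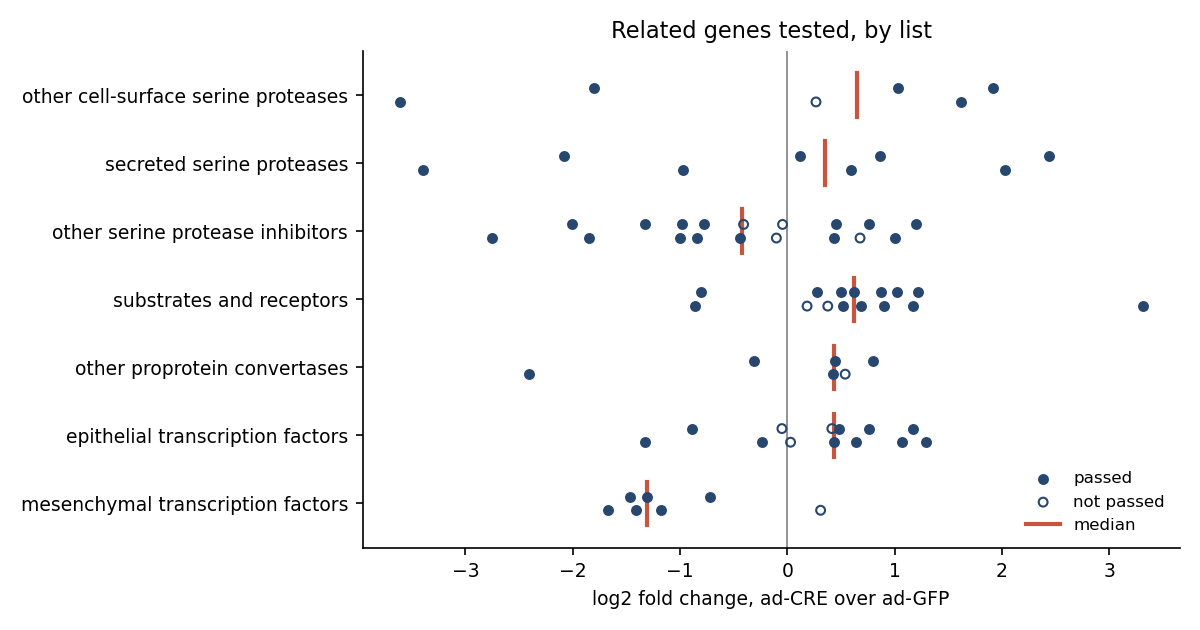
Log2 fold change (ad-CRE over ad-GFP) of each related gene tested, by list, with filled points past an adjusted p of 0.05, open points for the rest and a bar at the list's median. Medians run from −1.31 for the mesenchymal factors to 0.65 for the cell-surface proteases, whose median was −0.38 with no filter beyond 1 read.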

How the data were processed

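RNA was sequenced in 8 libraries (4 ad-GFP, 4 ad-CRE). The authors deposited 1 table with, per the file headers, a read count and an FPKM value per library, their mean FPKM per group, the log2 ratio of these means, and a p-value and FDR. The submitters' processing notes name GRCm38 and mm10; these sources name no aligner, counter or annotation. For some genes the ratio of count to FPKM varied between libraries, so the 2 columns can differ in direction. Whether replicates are separate cultures is not labelled; a p-value here reflects variation among libraries only, and that may be technical. No pair of replicates agreed within counting noise (chi-square over degrees of freedom, 1.71 to 3.24).

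Counts were fitted in R 4.3.3 with edgeR 4.0.16 (filterByExpr, TMM, glmQLFit and glmQLFTest on the group, Benjamini-Hochberg over 13702 genes, threshold 0.05). CPM uses TMM-scaled library sizes. DESeq2 1.42.0 and limma 3.58.1 served as alternatives. Coordinates come from GENCODE release M21 (22219 of 22274 gene IDs found), promoter windows from RefSeq. Members, lists, tests and motifs were chosen with earlier results of these data known. Named related genes are the 3 smallest p-values and the 2 highest mean FPKM of each list, beside neighbours and a few that were singled out after their values were seen. Some genes that this rule names are not reported here.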

Additional observations from a re-analysis of the deposited data

Results flagged for a closer look

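Of 70 groups of 4 libraries examined for 35 genes, 3 held a library set far apart from the other 3 of its group; chance alone gives about 1 in 20. Prss22 was at 19.6 CPM in ad-GFP replicate 4, where the other ad-GFP libraries were at 16.03 to 16.5 CPM. App was at 1752 CPM in ad-CRE replicate 1, above 1710 to 1712 CPM in the other ad-CRE libraries. Grhl2 was at 29.3 CPM in ad-GFP replicate 1, above 25.1 to 25.6 CPM in the others. Without the library in question the log2 fold change was 2.88 for Prss22, 0.75 for App and 1.13 for Grhl2, beside 2.81, 0.76 and 1.07 with all libraries.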

How the results depend on the processing

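Of the 16 alternatives, some changed the scaling (DESeq2 size factors or total counts). Others changed the filter (more than 1 read over all libraries, or 5 CPM in 4 libraries). The test was changed to DESeq2, or to limma on log2(FPKM + 1) and log2(FPKM + 0.1). The rest added a replicate block or left out each library in turn. Over all 16, the count of members past the threshold was 7 to 9, beside 8, and that of all genes 8366 to 10696, beside 10022. These counts are of unlike numbers tested. The 8366 genes were of 10972 with the filter of 5 CPM, and the 10696 of 17637 with no filter beyond 1 read, beside 13702. The 9 members were of 10 with no filter beyond 1 read, Tmprss4 among them, and of 9 without ad-CRE replicate 4. With the filter of 5 CPM, 2 secreted proteases of 3 tested passed, 6 epithelial factors of 7 and 3 mesenchymal factors of 3, and no other cell-surface protease was left to test; fewer genes were tested there. With no filter beyond 1 read, 8 of 16 other cell-surface proteases passed, 4 in each direction. With a replicate block the count of genes past the threshold was 9963 and that of members 8. Same-numbered libraries had correlations of −0.17 to 0.15 in their deviations from the group means, and differently numbered ones −0.23 to 0.21. These values show no sign of pairing by number, but so few libraries cannot exclude it. Over the alternatives Prss22 had a log2 fold change of 2.69 to 2.88, Tmprss2 1.64 to 1.87, Prss8 1.41 to 1.65, St14 1.15 to 1.25, Spint2 1.01 to 1.12, Hpn 0.87 to 1.104 and Spint1 0.89 to 0.96. The inhibitor to protease ratio, 0.626 of its ad-GFP value in ad-CRE, was 0.843 without Prss22 and 1.09 with Prss23, both chosen after seeing the data. On the log2(FPKM + 1) scale the low genes Tmprss11f, Corin, Prss35 and Prss27 had −0.89, −0.26, −0.64 and 1.04, still past the threshold, since the pseudocount shrinks low values. Depth limits Tmprss4, with 6 and 29 reads.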
